A study of Mus musculus with 8 samples.

Results

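The Wnt ligands, their Frizzled receptors, the secreted antagonists of the Sfrp and Dkk families, the R-spondins and the R-spondin receptors Lgr4, Lgr5 and Lgr6 were examined in mouse embryonic stem cells at day 10 of differentiation and at day 0. Members were all protein-coding genes of the GENCODE M21 annotation whose symbol begins with Wnt, Fzd, Sfrp, Dkk or Rspo and a number, or is Lgr4, Lgr5 or Lgr6. They were 44 of 32780 genes measured: 19 Wnt, 10 Fzd, 4 Sfrp, 4 Dkk, 4 Rspo and 3 Lgr genes. The rule that picks them uses gene names and no measured value, although the family was taken up with earlier results of these data known.

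Wnt proteins are lipid-modified secreted signals. They bind Frizzled receptors, and with the co-receptors Lrp5 or Lrp6 they stop the destruction of beta-catenin, which then acts with TCF/LEF factors in the nucleus, while other Wnt signals act through Frizzled, Ror or Ryk without beta-catenin. Sfrp proteins bind Wnts outside the cell, Dkk1 and Dkk2 occupy Lrp5 and Lrp6, and R-spondins bound to Lgr receptors keep the ligases Znrf3 and Rnf43 from removing Frizzled. In the embryo and in stem cell cultures, Wnt signalling through beta-catenin helps to form mesoderm, and its antagonists act in the later formation of heart muscle.

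The first group was 4 libraries of TC1 cells, a mouse embryonic stem cell line, after 10 days of differentiation, and the second was 4 libraries of the same line as undifferentiated stem cells at day 0. Both groups were wild-type with no transgene or other agent named, and total RNA of dissociated cells was sequenced with a kit that includes ribosomal RNA removal. The labels do not give the cell type reached at day 10. Whether the 4 libraries per group were separate cultures is not stated, and the p-values then reflect only how these libraries vary, which may be technical. Batches are not labelled either, and any that coincided with the day and the day itself cannot be told apart.

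Depth overlapped between the groups, with 13525255 to 17843651 estimated counts in the day 10 libraries and 11242568 to 15808039 in the day 0 libraries. The labelled states were checked against marker lists. The summed level of 8 pluripotency genes was 165 to 220 CPM at day 10 and 3347 to 3700 CPM at day 0, CPM being counts scaled to a library of 1000000. Most of the day 10 sum was Klf4, which changed little (log2 -0.19). Klf4 had 145 to 173 CPM at day 10 and 167 to 189 CPM at day 0, with overlapping groups. Of the other lists, 6 of 6 fibroblast genes, 6 of 6 endothelial genes, 6 of 6 epicardial and mesothelial genes, 7 of 7 cardiomyocyte genes, 5 of 6 smooth muscle genes, 4 of 5 blood genes and 4 of 6 visceral endoderm genes tested were higher at day 10, and of 6 neural genes 1 was higher and 2 were lower. The fibroblast sum was 5139 to 8901 CPM at day 10 and 117 to 133 CPM at day 0, the cardiomyocyte sum 397 to 603 CPM at day 10 and 50.4 to 62.8 CPM at day 0, and the endothelial sum 416 to 508 CPM at day 10 and 40.3 to 44.5 CPM at day 0. The epicardial gene Muc16 and the blood gene Plek had no count at day 0, and no listed marker was at 0 at day 10. In bulk RNA of this kind, more cells of a type and more RNA per cell cannot be told apart. Day 10 library 2 stood apart. Its summed neural markers were 179 CPM, against 41.6 to 56.4 CPM in the other day 10 libraries and 82.1 to 88.5 CPM at day 0, and its visceral endoderm sum was 3701 CPM, against 1116 to 2560 CPM in the other day 10 libraries and 441 to 480 CPM at day 0. Its fibroblast, smooth muscle and epicardial sums, the last being 207 CPM against 290 to 358 CPM, were the lowest of the day 10 libraries. Results that rest on it are given with and without it, and the part of the changing mix of cells in the results was not tested.

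Of the 44 members, 33 had enough counts to be tested, and in each class most of the tested members were higher at day 10, beside a small group that fell. In edgeR's quasi-likelihood test with adjustment over 15097 genes, 26 of them rose and 6 fell, and Wnt3 did not pass the threshold of 0.05. A higher call was made for 78.8% of the tested members and for 42.7% of all genes tested, and a lower call for 18.2% of the members and for 39.4% of all genes. Changes over 2-fold were called upward for 23 members (69.7%, against 24.1% of all genes) and downward for 4 (17.3% of all genes were so called, and 41.4% in either direction). Every day 10 library lay above every day 0 library in 25 of the tested members, as in 40.8% of all genes tested, and below in 6, as in 37.2% of all genes. The median log2 change of the tested members was 2.59, and that of all genes tested was 0.06. On log2(TPM + 0.1), TPM being a measure corrected for transcript length and summing to the same total in every library, limma called 7846 of all genes higher and 4077 lower, against 6449 higher and 5950 lower on counts. These shares and medians describe the members that passed the low-count filter, and a gene that passed it through 1 group alone had to differ. Wnt2, Dkk2 and Rspo2, with 0, 2 and 3 counts over the day 0 libraries, passed it through day 10 alone. Wnt8a, with 6 counts over the day 10 libraries, passed it through day 0 alone. The p-values of these genes add nothing to those counts. Wnt2b, Wnt5b, Wnt7b, Lgr5, Lgr6, Rspo1 and Rspo3 had only 29 to 52 counts over the day 0 libraries. Fzd9 and Sfrp4 had 28 and 44 counts over the day 10 libraries. Each of these genes had a library with 7 or fewer counts in that group, too few for the filter. They thus also passed it through the other group alone, and the same limit holds for their p-values. An exact number of such members was not counted.

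**Figure D1:**
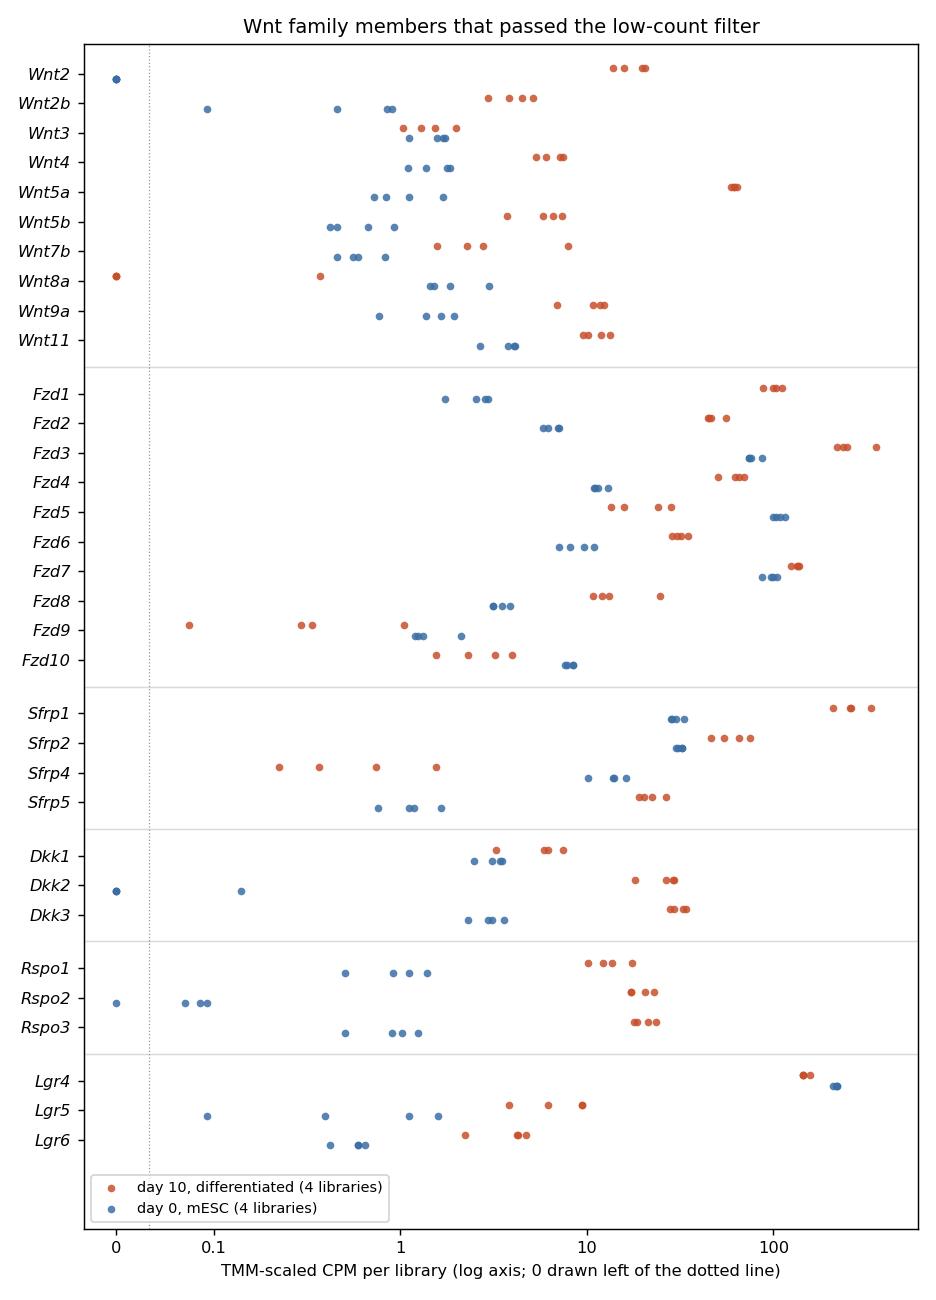
Counts scaled to CPM on a log axis for the 33 tested members, with day 10 libraries as the upper, red points and day 0 libraries as the lower, blue points of each gene, and values of 0 drawn left of the dotted line. The groups overlap in Wnt3 and Dkk1 and lie apart in the other 31 members, with day 10 to the left in Wnt8a, Fzd5, Fzd9, Fzd10, Sfrp4 and Lgr4.

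Promoter sequences were taken from the RefSeq table for GRCm38.p6, which holds 32 windows of 29 of the 44 members, each from 250 bases before to 50 after a start. The sequence CTTTGAT or its reverse complement ATCAAAG, a core of the TCF/LEF binding motif, occurred on either strand in 2 of the 32 member windows (6.25%) and in 1225 of all 32851 windows (3.73%). A shorter version, CTTTGA or TCAAAG, which every longer match also holds, occurred in 4 member windows (12.5%) and in 5257 of all windows (16.003%). A match is a description of the letters, not a binding site. Members had a median GC content of 68.3% and a median of 26.5 CpG dinucleotides per window, against 52.7% and 7 in all windows. All windows cover 27025 genes, more than the 21860 protein-coding genes matched here. These comparisons, the motif shares included, are thus not with protein-coding genes alone. The windows with the longer match belong to Wnt5b and Wnt11, and Wnt11 has a second start without a match, shown because transcript shares of Wnt11 are compared further on. The 250 bases before each start are given 5′ to 3′ with the match in capitals.
Wnt5b, chr6:119449387-119449636, minus strand: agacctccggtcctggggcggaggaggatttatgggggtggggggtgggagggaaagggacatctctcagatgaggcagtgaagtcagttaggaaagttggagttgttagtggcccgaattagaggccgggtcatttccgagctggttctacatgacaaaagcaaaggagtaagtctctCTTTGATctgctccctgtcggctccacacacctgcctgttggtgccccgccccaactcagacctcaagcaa
Wnt11, chr7:98834862-98835111, plus strand, upstream start: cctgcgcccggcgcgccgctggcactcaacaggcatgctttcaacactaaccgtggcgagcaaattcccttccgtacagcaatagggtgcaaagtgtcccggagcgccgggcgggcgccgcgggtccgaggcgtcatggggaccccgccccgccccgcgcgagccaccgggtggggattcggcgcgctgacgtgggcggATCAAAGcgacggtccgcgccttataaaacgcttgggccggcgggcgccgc
Wnt11, chr7:98838595-98838844, plus strand, downstream start: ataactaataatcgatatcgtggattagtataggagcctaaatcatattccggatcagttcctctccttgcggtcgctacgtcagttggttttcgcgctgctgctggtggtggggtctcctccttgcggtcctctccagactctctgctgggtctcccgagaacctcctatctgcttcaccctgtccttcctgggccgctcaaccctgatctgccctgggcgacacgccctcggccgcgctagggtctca
The match begins at base 180 of the Wnt5b sequence, which is 1 of 3 Wnt5b windows in the table, and at base 200 of the upstream Wnt11 sequence.

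Among the Wnt ligands, 8 of the 10 tested members rose (42.7% of all genes did), Wnt8a fell (39.4% of all genes did) and Wnt3 was not called. The median log2 change was 2.69. Wnt5a, which acts largely without beta-catenin and drives outgrowth of the body axis and limbs, was measured at 59.4, 61.4, 63.8 and 61.4 CPM in the day 10 libraries and at 1.11, 0.836, 1.68 and 0.720 CPM in the day 0 libraries. The day 10 libraries lay close together and far above those of day 0. Its log2 change was 5.85 ± 0.16 (SE; edgeR adjusted p = 6.82e-13). Wnt2, a ligand of the mesoderm around the early heart and lung, was measured at 19.9, 13.8, 15.8 and 20.5 CPM at day 10 and had no count in any day 0 library. With 1076 counts over the day 10 libraries and a floor of 3 counts over the day 0 group, Wnt2 was at least 306-fold higher (edgeR adjusted p = 1.08e-09), a bound that covers counting error at day 0 only. Wnt2b, its closest relative, had 4.49, 2.96, 3.80 and 5.16 CPM at day 10 and 0.0922, 0.905, 0.842 and 0.458 CPM at day 0 (log2 2.79 ± 0.40, edgeR adjusted p = 1.46e-05).

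Wnt11, a ligand of cell movement and of the cardiac outflow tract, had 13.3, 10.1, 9.49 and 11.9 CPM at day 10 and 2.67, 3.76, 4.13 and 4.06 CPM at day 0. Its groups lay apart, with a log2 change of 1.61 ± 0.18 (edgeR adjusted p = 1.30e-06), the smallest of the 8 rises among the ligands. Wnt9a, known from joint formation, had 12.4, 6.92, 11.7 and 10.8 CPM at day 10 and 1.66, 0.766, 1.94 and 1.37 CPM at day 0 (log2 2.88 ± 0.27, edgeR adjusted p = 1.95e-07). Wnt5b, the paralogue of Wnt5a, had 7.36, 5.80, 3.72 and 6.56 CPM at day 10 and 0.922, 0.418, 0.674 and 0.458 CPM at day 0 (log2 3.27 ± 0.32, edgeR adjusted p = 3.01e-07). In both genes every day 10 library was above every day 0 library. Wnt4, a ligand of kidney and female gonad development, had 7.47, 7.22, 6.04 and 5.34 CPM at day 10 and 1.85, 1.78, 1.09 and 1.37 CPM at day 0 (log2 2.08 ± 0.23, edgeR adjusted p = 1.14e-06).

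Wnt7b, a ligand of lung, placenta and nervous system, had 2.28, 7.90, 2.78 and 1.57 CPM at day 10 and 0.829, 0.557, 0.589 and 0.458 CPM at day 0 (log2 2.59 ± 0.54, edgeR adjusted p = 7.18e-04). Its day 10 level was highest in library 2, at 3.58 times the mean of the other day 10 libraries, and without that library the log2 change was 1.85 (edgeR adjusted p = 1.49e-04). Wnt8a, expressed at the primitive streak of the mouse embryo, was the only tested ligand that fell. It had 0, 0.370, 0 and 0 CPM at day 10 and 1.84, 2.99, 1.52 and 1.44 CPM at day 0, from 6 and 103 summed counts (log2 -4.21 ± 0.71, edgeR adjusted p = 1.03e-04). All 6 day 10 counts lay in library 2. Without that library the fitted log2 change was -7.78 against a day 10 group with no count, which is no bound (edgeR adjusted p = 8.96e-07). Wnt3, which the mouse embryo needs to form the primitive streak, had 1.03, 1.98, 1.53 and 1.29 CPM at day 10 and 1.11, 1.74, 1.68 and 1.57 CPM at day 0, and the groups overlapped (log2 -0.07 ± 0.30, edgeR adjusted p = 0.835).

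The other 9 ligands, Wnt1, Wnt3a, Wnt6, Wnt7a, Wnt8b, Wnt9b, Wnt10a, Wnt10b and Wnt16, had too few counts to be tested, at most 68 over the libraries of a group. Wnt8b had 68 counts at day 10 and 6 at day 0, Wnt10b 32 at day 10 and 3 at day 0, and Wnt7a 19 at day 10 and 0 at day 0. The Wnt10b ratio, scaled for depth, was 9.11 with a 95% exact counting interval of 2.85 to 46.5, and every day 10 library lay above day 0. Wnt16 had the opposite order, with 7 counts at day 10 and 29 at day 0, but its libraries overlapped. Wnt3a, a widely used activator of beta-catenin signalling, had 5 counts at day 10 and 5 at day 0, and Wnt6 had 20 at day 10 and 27 at day 0. Wnt9b had 13 at day 10 and 3 at day 0, a depth-scaled ratio of 3.70 with an interval of 1.02 to 20.2 and overlapping libraries. Wnt10a had 4 at day 10 and 2 at day 0, a ratio of 1.71 with an interval of 0.245 to 18.9, which includes 1. Wnt1 had 6 at day 10 and 0 at day 0. Several of these genes are close neighbours of another Wnt gene. Wnt3a lies 16.2 kb from Wnt9a on chromosome 11, and Wnt9a held 632 counts at day 10 and 73 at day 0, while Wnt3a held 5 at each day. Wnt9b lies 24.3 kb from Wnt3 on the same chromosome, Wnt10b lies 11.7 kb from Wnt1 on chromosome 15, and Wnt6 lies 6.19 kb from Wnt10a on chromosome 1.

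Levels of different genes were compared as TPM, which corrects for transcript length. At day 10 the order of the ligands was Wnt5a at 31.1 ± 1.66 TPM, Wnt2 at 17.1 ± 2.81 TPM and Wnt11 at 12.2 ± 1.69 TPM (SD, n = 4), then Wnt9a at 6.75 ± 1.46 TPM and Wnt5b at 5.996 ± 1.54 TPM. Wnt2 and Wnt11 overlapped between libraries, as did Wnt9a and Wnt5b, while Wnt5a stood above all. At day 0 Wnt11 led at 3.64 ± 0.726 TPM, followed by Wnt8a at 1.92 ± 0.794 TPM with overlapping libraries, and each other ligand averaged below 1 TPM. Summed over the 19 genes, ligand RNA was 85.4 ± 4.82 TPM at day 10 and 10.9 ± 1.14 TPM at day 0. Wnt5a made up 36.5% of that sum at day 10 and 4.82% at day 0, Wnt2 19.99% at day 10 and 0% at day 0, Wnt11 14.2% at day 10 and 33.7% at day 0, and Wnt8a 0.15% at day 10 and 17.4% at day 0. Ligand RNA was thus led by Wnt5a and Wnt2 at day 10 and by Wnt11 and Wnt8a at day 0.

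**Figure D2:**
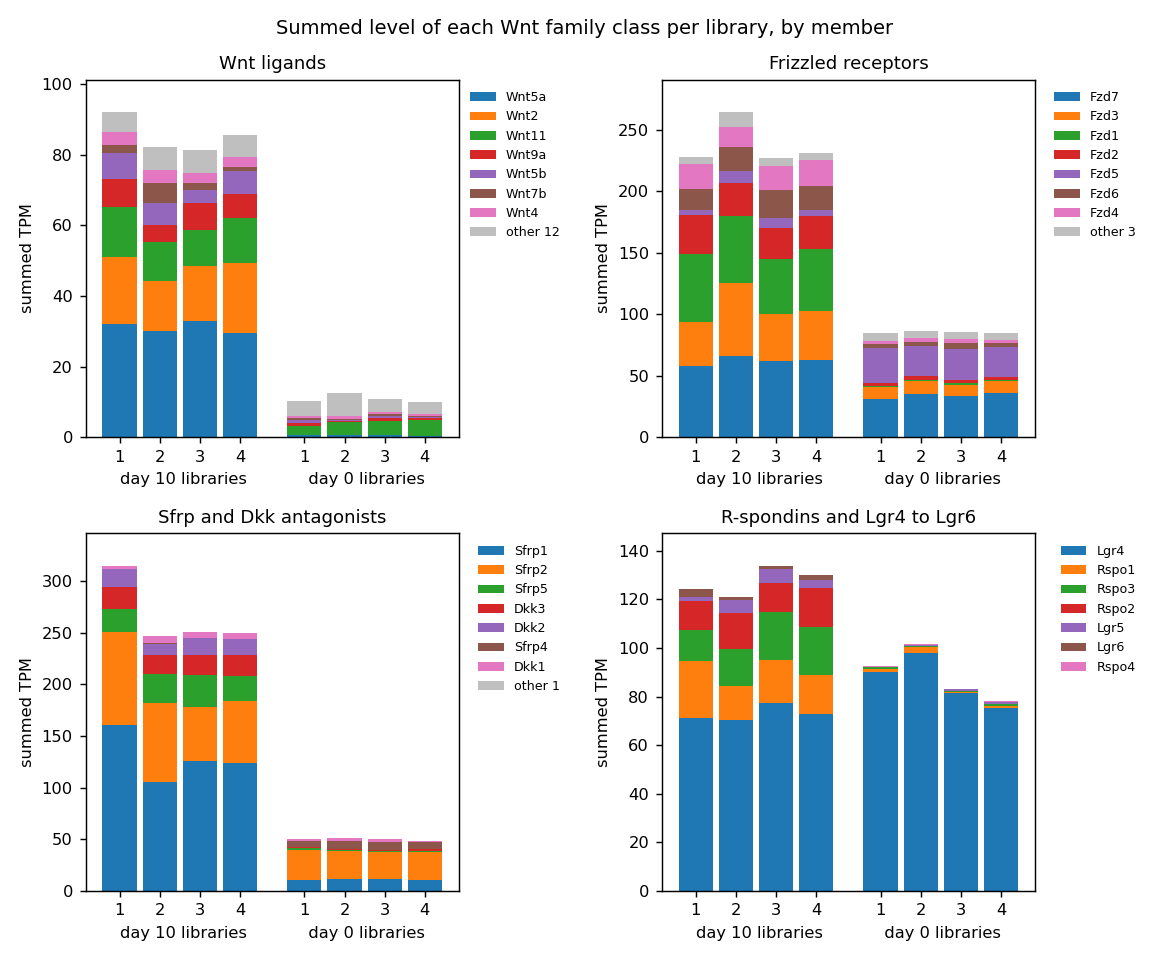
Summed TPM per library, split by member, for the ligands, the Frizzled receptors, the Sfrp and Dkk antagonists, and the R-spondins with Lgr4 to Lgr6, with day 10 libraries left of day 0 libraries in each panel. Ligand, Frizzled and antagonist bars are taller in every day 10 library, and in the panel of R-spondins and Lgr genes the Rspo segments are plain in each day 10 library and thin at day 0, beside a large Lgr4 segment on both days.

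Wnt11 was the ligand whose transcripts were abundant enough to compare. Wnt11-201, which begins 19 bases downstream of the upstream RefSeq start shown above, made up 25.9%, 20.9%, 23.3% and 21.8% of Wnt11 TPM in the day 10 libraries and 3.22%, 8.99%, 2.33% and 7.87% in the day 0 libraries. The groups did not overlap. The difference of 17.3 percentage points had a two-sided exact permutation p of 0.0286, the smallest that 70 assignments of 4 and 4 libraries can give, and 0.20 after adjustment over 7 transcripts of 4 genes. Wnt11-205, which begins at the downstream start, made up 57.1 ± 9.62% at day 10 and 75.4 ± 12.9% at day 0 (SD, n = 4; exact permutation p = 0.0857, adjusted p = 0.30), with overlapping groups. The 2 transcripts also differ at their other end, at 98855195 for Wnt11-201 and 98853751 for Wnt11-205 on chromosome 7, so these shares do not show start use alone. No transcript of the 7, which came from Wnt11, Fzd5, Fzd6 and Lgr4, passed the adjusted threshold (0.0% called). The lowest adjusted p in this family of permutation tests was 0.20. With a smallest possible p of 0.0286, a transcript that changed alone could not pass, so the lack of calls does not show unchanged shares. The 2 Fzd5 transcripts mirror each other, at differences of 1.08 and -1.08 percentage points, and are not separate evidence. Shares of Wnt11-201 rest on 53.2 to 81.2 estimated counts per library at day 10 and on 1.97 to 11.8 at day 0.

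All 10 Frizzled receptors were tested, and 7 rose while Fzd5, Fzd9 and Fzd10 fell, with a median log2 change of 1.79. Of all genes tested, 42.7% were called higher, 39.4% lower and 82.1% in either direction. The steepest rise was in Fzd1, which had 111, 103, 88.0 and 100.1 CPM at day 10 and 2.86, 1.74, 2.95 and 2.55 CPM at day 0 (log2 5.33 ± 0.13, edgeR adjusted p = 3.14e-13). Fzd2, closely related to Fzd1 and Fzd7 and a receptor for Wnt5a, had 55.5, 45.0, 44.6 and 46.5 CPM at day 10 and 5.81, 7.03, 7.07 and 6.22 CPM at day 0 (log2 2.87 ± 0.11, edgeR adjusted p = 2.03e-11). Per length, Fzd1 averaged 51.0 TPM and Fzd2 28.0 TPM at day 10, while Fzd1 averaged 0.9501 TPM and Fzd2 2.85 TPM at day 0, so the order of these levels was opposite on the 2 days. Fzd7, the third of this subgroup and a prominent Frizzled of embryonic stem cells, had 125, 136, 134 and 137 CPM at day 10 and 86.5, 96.9, 99.5 and 105 CPM at day 0. Its libraries did not overlap and its log2 change was 0.45 ± 0.07 (edgeR adjusted p = 3.09e-05), but with a trend on transcript length removed the value was -0.17 (edgeR adjusted p = 0.0316), so the direction of Fzd7 depends on that choice.

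Fzd4, the receptor for Norrin and a regulator of retinal blood vessels, had 65.1, 50.3, 62.4 and 69.7 CPM at day 10 and 11.0, 11.0, 11.5 and 13.0 CPM at day 0 (log2 2.41 ± 0.11, edgeR adjusted p = 1.16e-10), and its log2 change was 1.60 with the length trend removed. Fzd3 and Fzd6, which act together in planar polarity of the mouse, rose as well. Fzd3 had 219, 354, 236 and 248 CPM at day 10 and 76.3, 86.7, 74.2 and 74.2 CPM at day 0 (log2 1.76 ± 0.14, edgeR adjusted p = 7.16e-07), and its log2 change was 0.73 with the length trend removed. Fzd6 had 30.2, 28.7, 34.8 and 32.0 CPM at day 10 and 8.11, 9.68, 10.9 and 7.07 CPM at day 0 (log2 1.81 ± 0.13, edgeR adjusted p = 1.41e-08). Both genes were higher in every day 10 library. Fzd8, a receptor of the anterior embryo and the kidney, had 13.1, 24.8, 12.0 and 10.8 CPM at day 10 and 3.50, 3.13, 3.87 and 3.14 CPM at day 0 (log2 2.16 ± 0.27, edgeR adjusted p = 8.53e-06). Day 10 library 2 was again the highest, and without it the log2 change of Fzd8 was 1.81, while with the length trend removed it was 1.39.

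Fzd5, which the mouse needs for yolk sac and placental vessels, had 13.5, 28.2, 24.1 and 15.9 CPM at day 10 and 116, 99.6, 108 and 103 CPM at day 0. Every day 10 library lay far below day 0, and the log2 change was -2.38 ± 0.21 (edgeR adjusted p = 3.21e-06). It was -3.18 after the trend on length was taken out. Fzd10 had 1.55, 3.21, 3.94 and 2.30 CPM at day 10 and 8.39, 8.43, 7.83 and 7.66 CPM at day 0 (log2 -1.55 ± 0.24, edgeR adjusted p = 3.13e-05). Fzd9, which lies on chromosome 5 as Fzd1 and Fzd10 do, had 0.294, 1.05, 0.0730 and 0.336 CPM at day 10 and 1.20, 1.32, 2.11 and 1.24 CPM at day 0 (log2 -1.68 ± 0.51, edgeR adjusted p = 7.52e-03). Day 10 library 2 held 4.47 times the mean Fzd9 level of the other day 10 libraries, and without it the log2 change was -2.55 (edgeR adjusted p = 1.21e-04).

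In TPM, Fzd7 was the most abundant Frizzled on both days, at 62.2 ± 3.50 TPM at day 10 and 33.8 ± 2.10 TPM at day 0 (SD, n = 4). The second place was taken by Fzd1 at day 10 with 51.0 ± 5.02 TPM, overlapping Fzd3 at 43.3 ± 10.9 TPM, and by Fzd5 at day 0 with 25.4 ± 2.15 TPM. At day 10 Fzd2 followed at 28.0 ± 2.72 TPM, then Fzd6 at 19.7 ± 2.43 TPM and Fzd4 at 19.3 ± 2.19 TPM, which overlapped. Fzd1 contributed 21.5% of summed Frizzled TPM at day 10 and 1.11% at day 0, and Fzd5 contributed 2.71% at day 10 and 29.7% at day 0. The sum over the 10 genes was 238 ± 17.9 TPM at day 10 and 85.4 ± 0.926 TPM at day 0. Summed Frizzled RNA was spread over different members on the 2 days, with Fzd7, Fzd1, Fzd3 and Fzd2 each above 10% of the sum at day 10 and Fzd7, Fzd5 and Fzd3 above 10% at day 0.

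The Sfrp antagonists split into 3 genes that rose and Sfrp4, which fell, beside 42.7% higher and 39.4% lower of all genes tested. Sfrp1 had 336, 208, 261 and 258 CPM at day 10 and 28.4, 30.2, 33.0 and 28.5 CPM at day 0 (log2 3.15 ± 0.14, edgeR adjusted p = 1.47e-09), and its log2 change was 2.54 with the length trend removed. Sfrp5, which marks the mouse foregut and cardiac inflow region, had 19.1, 22.5, 26.5 and 20.3 CPM at day 10 and 1.66, 1.11, 0.758 and 1.18 CPM at day 0 (log2 4.23 ± 0.20, edgeR adjusted p = 1.08e-10). Sfrp2 had 75.3, 65.4, 46.5 and 54.4 CPM at day 10 and 32.4, 30.1, 32.2 and 30.8 CPM at day 0 (log2 0.94 ± 0.13, edgeR adjusted p = 1.49e-05). These 3 genes were higher in every day 10 library. The fitted change of Sfrp2 was 1.92-fold on counts, and its log2 change was 1.31 on log2(TPM + 0.1). Sfrp4, best known from bone, had 0.736, 1.54, 0.365 and 0.224 CPM at day 10 and 10.1, 13.9, 16.2 and 13.8 CPM at day 0 (log2 -4.22 ± 0.39, edgeR adjusted p = 8.36e-07). No day 10 library came near day 0, and day 10 library 2 was the highest of the day 10 libraries, at 3.49 times the mean of the others. Without it the log2 change of Sfrp4 was -4.97 (edgeR adjusted p = 5.58e-11).

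In TPM, Sfrp1 led at day 10 with 129 ± 23.4 TPM, above Sfrp2 at 69.9 ± 16.9 TPM and Sfrp5 at 26.2 ± 4.05 TPM. At day 0 Sfrp2 led with 27.6 ± 1.35 TPM, above Sfrp1 at 10.9 ± 0.690 TPM and Sfrp4 at 6.73 ± 1.33 TPM (SD, n = 4). Neighbours in both orders lay apart in all libraries. Sfrp1 made up 57.0% of the Sfrp sum at day 10 and 23.5% at day 0, and Sfrp2 30.9% at day 10 and 59.7% at day 0.

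All 3 Dkk genes tested rose, as did 42.7% of all genes tested. Dkk2, a ligand of Lrp5 and Lrp6 that can inhibit or activate signalling depending on context, had 29.2, 18.2, 29.0 and 26.5 CPM at day 10 and 0, 0.139, 0 and 0 CPM at day 0. Its counts summed to 1561 at day 10 and 2 at day 0, a depth-scaled ratio of 667 with a 95% exact counting interval of 184 to 5508 (edgeR adjusted p = 8.93e-11), and both day 0 counts lay in library 2. Dkk3, the divergent member of the family, had 34.1, 27.9, 29.2 and 32.6 CPM at day 10 and 2.95, 2.30, 3.12 and 3.60 CPM at day 0 (log2 3.37 ± 0.14, edgeR adjusted p = 4.61e-11). Both lay well above day 0 in every day 10 library. Dkk1, the classic inhibitor of Lrp6 and needed for head formation in the mouse, had 3.24, 7.42, 6.21 and 5.90 CPM at day 10 and 3.51, 3.42, 3.12 and 2.49 CPM at day 0 (log2 0.87 ± 0.25, edgeR adjusted p = 5.31e-03). Its groups overlapped, since day 10 library 1 lay within the day 0 range. Dkk4 had no count at day 10 and 1 at day 0, and was not tested.

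In TPM, the Dkk order at day 10 was Dkk3 at 19.8 ± 1.48 TPM, Dkk2 at 14.8 ± 2.71 TPM and Dkk1 at 5.18 ± 1.70 TPM, each apart from the next (SD, n = 4). At day 0 Dkk1 had 2.13 ± 0.375 TPM and Dkk3 1.42 ± 0.218 TPM, which overlapped. Dkk1 thus made up 13.2% of the Dkk sum at day 10 and 59.1% at day 0, and Dkk2 37.0% at day 10 and 0.43% at day 0. Dkk3, which is not among the Lrp5 and Lrp6 ligands named above, made up 49.8% at day 10 and 39.8% at day 0.

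All 3 tested R-spondins rose (42.7% of all genes did), and their class had the highest ratio of summed TPM of the 6 classes. Rspo2, required for limb and lung development in the mouse, had 17.2, 20.6, 17.3 and 23.0 CPM at day 10 and 0.0922, 0.0696, 0.0842 and 0 CPM at day 0. The 1214 counts at day 10 and 3 at day 0 gave a depth-scaled ratio of 346 with a 95% exact counting interval of 118 to 1678 (edgeR adjusted p = 1.11e-11). Rspo3, required for placental vessels in the mouse, had 18.5, 17.8, 23.5 and 21.2 CPM at day 10 and 1.01, 0.905, 0.505 and 1.24 CPM at day 0 (log2 4.43 ± 0.21, edgeR adjusted p = 1.05e-10). Rspo1, which acts in ovary formation, had 17.5, 10.1, 13.6 and 12.2 CPM at day 10 and 1.11, 1.39, 0.505 and 0.917 CPM at day 0 (log2 3.74 ± 0.26, edgeR adjusted p = 8.40e-09). For all 3 genes the groups lay far apart. Rspo4 had no count at day 10 and 8 at day 0, and was not tested. Against a floor of 3 counts over the day 10 group it was 3.12-fold lower. That value leaves out the counting error of the 8 counts, so it is no firm bound. In TPM, Rspo1 at 17.8 ± 3.98, Rspo3 at 17.0 ± 3.42 and Rspo2 at 13.6 ± 2.02 TPM overlapped at day 10 (SD, n = 4), while at day 0 Rspo1 had 1.12 ± 0.738, Rspo3 0.666 ± 0.288 and Rspo2 0.0324 ± 0.0221 TPM.

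The receptors for R-spondins moved in different directions. Lgr4, the broadly expressed member, had 144.8, 143.7, 158 and 144.05 CPM at day 10 and 217, 221, 208 and 219.7 CPM at day 0, with no overlap (log2 -0.55 ± 0.06, edgeR adjusted p = 5.54e-07). The size of that fall depended on length scaling, with a log2 change of -0.24 on TPM and -1.12 with the length trend removed, lower in each. Lgr5, a marker of cycling intestinal stem cells, had 3.83, 9.45, 9.42 and 6.17 CPM at day 10 and 0.0922, 1.12, 1.60 and 0.393 CPM at day 0 (log2 3.16 ± 0.52, edgeR adjusted p = 1.73e-04). Lgr6 had 4.71, 2.22, 4.25 and 4.20 CPM at day 10 and 0.645, 0.418, 0.589 and 0.589 CPM at day 0 (log2 2.77 ± 0.33, edgeR adjusted p = 2.30e-06). Despite these rises, Lgr4 made up 92.3% of the Lgr sum at day 10 and 99.3% at day 0, since it had 72.9 ± 3.03 TPM at day 10 and 86.3 ± 9.94 TPM at day 0, against 4.04 ± 1.87 TPM of Lgr5 at day 10 and 0.381 ± 0.221 TPM at day 0 (SD, n = 4).

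**Figure D3:**
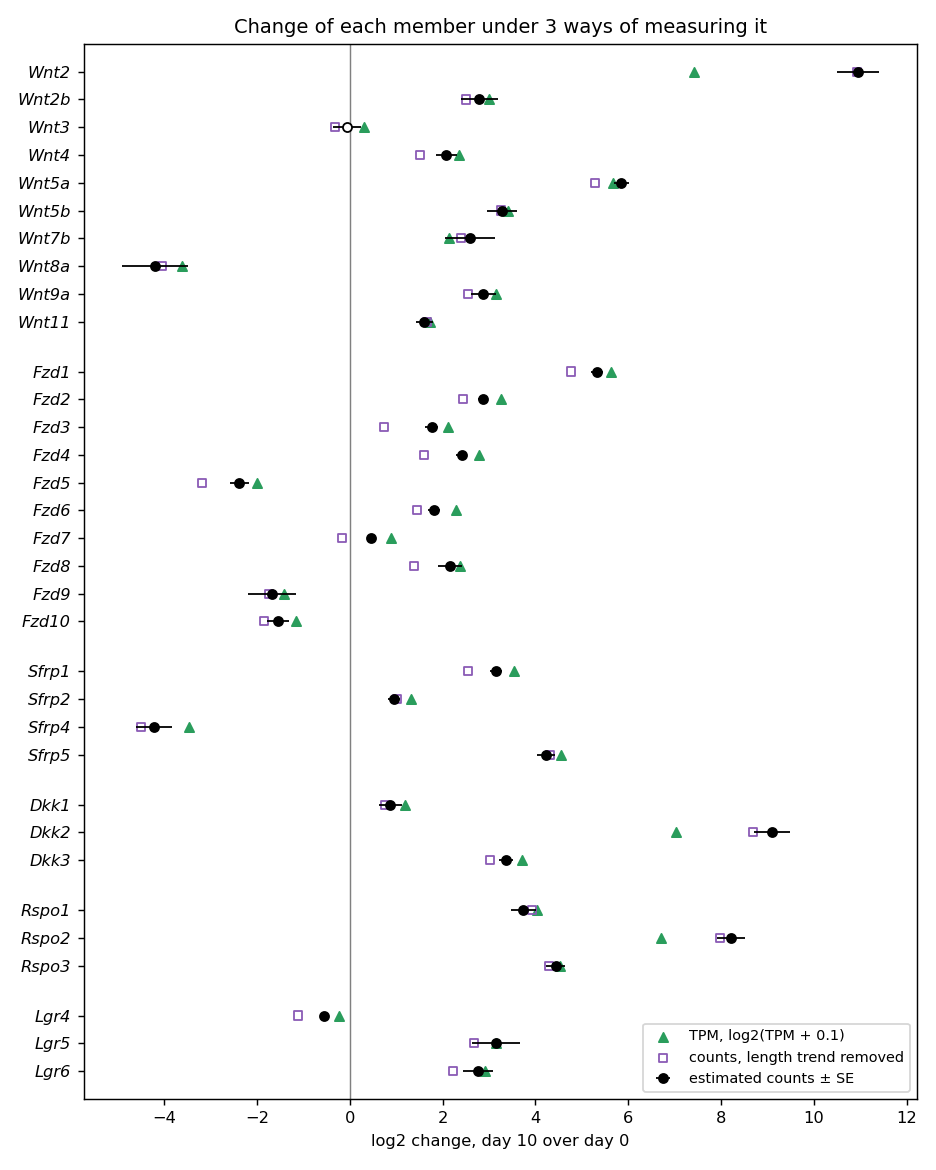
The log2 change of each tested member, day 10 over day 0, on estimated counts with SE (black, open for Wnt3, which did not pass the threshold), on log2(TPM + 0.1) (triangles) and on counts with the trend on transcript length removed (squares). The 3 measures lie on the same side of 0 for every member but Wnt3 and Fzd7, and the fitted values of Wnt2, Dkk2 and Rspo2 rest on 0 to 3 day 0 counts.

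Summed TPM of the classes is given as a description, without a test. The sum of the 4 Sfrp genes was 226 ± 32.0 TPM at day 10 and 46.2 ± 0.791 TPM at day 0, that of the 4 Dkk genes 39.8 ± 2.25 TPM at day 10 and 3.59 ± 0.210 TPM at day 0. The R-spondin sum was 48.3 ± 3.29 TPM at day 10 and 1.93 ± 0.752 TPM at day 0, a ratio of 25.1, and the Lgr sum was 79.0 ± 3.66 TPM at day 10 and 86.8 ± 9.83 TPM at day 0 (SD, n = 4). Ligand sums differed by a ratio of 7.86, Frizzled sums by 2.78, Sfrp sums by 4.88 and Dkk sums by 11.1. The median log2 change of all genes was 0.45 on log2(TPM + 0.1) and 0.06 on counts, and these ratios include that shift. Summed Sfrp TPM was 2.63 ± 0.234 times summed Wnt TPM at day 10 and 4.28 ± 0.368 times at day 0, and summed Frizzled TPM was 2.79 ± 0.308 times summed Wnt TPM at day 10 and 7.91 ± 0.701 times at day 0. Dkk RNA was 0.467 ± 0.0280 of Wnt RNA at day 10 and 0.333 ± 0.0391 at day 0, and R-spondin RNA was 0.612 ± 0.0409 of Lgr RNA at day 10 and 0.0219 ± 0.00717 at day 0. In each of these 4 ratios the day 10 and day 0 libraries did not overlap.

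Genes that act with the members were examined in 7 lists. Of 97 listed genes 89 were tested, of which 54 rose, 16 fell and 19 did not pass, with a median log2 change of 0.60. That is 60.7% higher and 17.98% lower, against 42.7% and 39.4% of all genes tested. On log2(TPM + 0.1) limma called 67 of the listed genes higher and 10 lower, beside 7846 higher and 4077 lower of all 15097 genes. In Wnt secretion and processing, 4 of 9 (44.4%) rose and 3 (33.3%) fell, shares near those of all genes, and the 2 central genes moved apart. Wls, the carrier that brings Wnt proteins to the cell surface, had 245 ± 27.9 CPM at day 10 and 6.84 ± 0.410 CPM at day 0 (SD, n = 4; log2 5.16 ± 0.10, edgeR adjusted p = 5.97e-14). Porcn, the enzyme that attaches the lipid to Wnt proteins, had 3.23 ± 1.01 CPM at day 10 and 16.7 ± 0.289 CPM at day 0 (log2 -2.36 ± 0.19, edgeR adjusted p = 3.17e-08). Notum, the enzyme that removes the lipid, fell (log2 -2.48 ± 0.30), and Trabd2b, a membrane protease that cleaves Wnt proteins, rose (log2 6.78 ± 0.23). The retromer genes Vps26a (log2 0.29) and Vps29 (log2 -0.56) changed little, and neither passed with the length trend removed.

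Among co-receptors and regulators of receptors, 14 of 15 tested genes (93.3%, against 42.7% of all genes) rose and 0 fell on counts, with a median log2 change of 1.07. With the length trend removed 10 were higher and 1 was lower, beside 6092 higher and 6082 lower of all 15097 genes. Lrp5 had 97.2 ± 10.7 CPM at day 10 and 52.3 ± 1.84 CPM at day 0 (SD, n = 4; log2 0.89 ± 0.08, edgeR adjusted p = 1.46e-07), and its log2 change was 0.25 with the length trend removed. Lrp6 rose by a log2 change of 0.60 ± 0.06 on counts (edgeR adjusted p = 6.84e-07) and was at -0.18 with the length trend removed, so its direction depends on that choice. Gpc3, a cell surface proteoglycan, rose by 3.58 on the log2 scale. Adgra2 and Reck, which together present Wnt7 ligands to Frizzled, rose by 3.18 and 2.80, and by 2.46 and 2.20 with the length trend removed. Among other secreted antagonists and ligands, 7 of 9 tested genes rose (77.8%, against 42.7% of all genes). Of the rest, 1 fell (11.1%, against 39.4% of all genes) and 1 did not pass, and the median was 1.74. Igfbp4, an IGF binding protein that also binds Frizzled and Lrp6, had 714 ± 70.3 CPM at day 10 and 29.6 ± 3.73 CPM at day 0 (log2 4.59 ± 0.10, edgeR adjusted p = 1.98e-13). Shisa2 and Shisa3, relatives of the frog protein Shisa that holds Frizzled inside the cell, rose by 2.15 and 4.50, and Dkkl1, a Dkk-like protein, fell (log2 -2.10 ± 0.35, and -1.31 after the trend on length was taken out).

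In the destruction complex and Dishevelled list, 8 of 16 rose (42.7% of all genes did), 2 fell (12.5%, against 39.4% of all genes) and 6 did not pass, with a median log2 change of 0.19, near that of all genes. Ctnnb1, which encodes beta-catenin, had 525 ± 18.2 CPM at day 10 and 406 ± 22.8 CPM at day 0 (SD, n = 4; log2 0.37 ± 0.06, edgeR adjusted p = 5.26e-05), and its value on log2(TPM + 0.1) was 1.07. Amer1, Gsk3b and Dvl3 rose by 2.51, 1.62 and 1.41 on the log2 scale, with Amer1 at 1.63 and Gsk3b at 0.86 when the length trend was removed. Axin2, a scaffold of the complex and a common readout of beta-catenin signalling, had 11.7 ± 2.24 CPM at day 10 and 19.8 ± 1.24 CPM at day 0 (log2 -0.76 ± 0.13, edgeR adjusted p = 1.20e-04). On log2(TPM + 0.1) the Axin2 value was -0.32 and did not pass (limma adjusted p = 0.197). Gsk3a fell on counts (log2 -0.32) and had a log2 value of 0.15 on TPM, where it did not pass.

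TCF/LEF factors and cofactors gave 9 of 15 higher (60.0%), 4 lower (26.7%) and 2 not passed, with a median log2 change of 0.49. Lef1 had 17.3 ± 0.354 CPM at day 10 and 125 ± 21.1 CPM at day 0 (SD, n = 4; log2 -2.85 ± 0.11, edgeR adjusted p = 2.04e-11). Tcf7 fell (log2 -2.01 ± 0.10), as did the corepressors Tle4 (log2 -1.82) and Ctbp2 (log2 -1.94, and -1.28 on log2(TPM + 0.1)). The beta-catenin cofactors Bcl9, Bcl9l and Pygo1 rose by 1.82, 2.37 and 3.70, with Pygo1 at 2.84 when the length trend was removed. Of genes known as targets of beta-catenin, 6 of 15 tested were higher (40.0%), 7 lower (46.7%) and 2 not passed, with a median of 0.10, and these shares lie near the 42.7% and 39.4% of all genes. Nkd1 (log2 4.16 ± 0.15), Apcdd1 (log2 1.74 ± 0.16) and Tnfrsf19 (log2 1.61 ± 0.11) rose while Axin2, Lef1, Tcf7 and Notum fell. Planar cell polarity genes gave 9 of 17 higher (52.9%), 3 lower (17.6%) and 5 not passed, with a median of 0.47. Prickle1, Prickle2 and Dact1 rose by 3.14, 4.21 and 3.48 on the log2 scale, with Prickle2 at 3.38 when the length trend was removed, and Scrib (log2 -0.59), Ankrd6 (log2 -0.42) and Celsr3 (log2 -0.82) fell on counts. On log2(TPM + 0.1) none of these last 3 passed, and Ankrd6 was at 0.12, while with the length trend removed Scrib was at -1.27, Ankrd6 at -1.01 and Celsr3 at -1.67. The Celsr3 call, at an edgeR adjusted p of 0.0279, was lost without day 10 library 1, 3 or 4 and without day 0 library 2 or 4, with edgeR adjusted p between 0.0521 and 0.0736, and without day 10 library 2 its log2 change was -1.31. The largest change in any list was that of Daam2, a formin acting downstream of Dishevelled, picked out after its values were seen, with 223 ± 39.6 CPM at day 10 and 0.228 ± 0.125 CPM at day 0 (log2 9.87 ± 0.25, edgeR adjusted p = 9.48e-12).

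**Figure D4:**
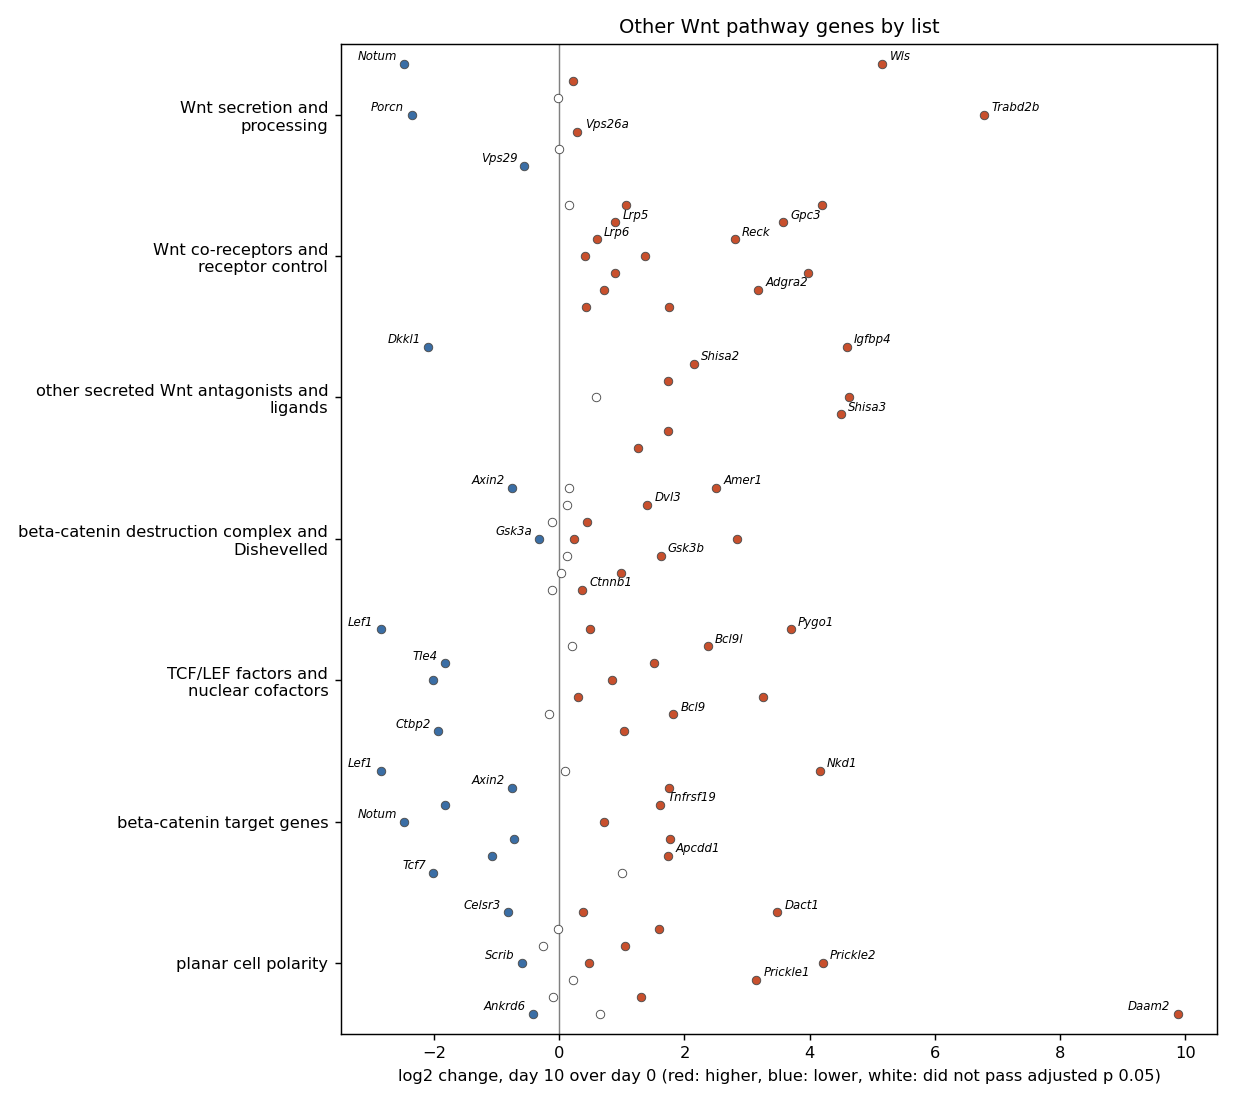
The log2 change, day 10 over day 0, of each tested gene in the 7 lists of other Wnt pathway genes, in red for genes called higher, blue for genes called lower and white for genes that did not pass. On these counts all called co-receptor and receptor control genes lie right of 0, Lrp6 among them, which is at -0.18 with the length trend removed, whereas the target, TCF/LEF and secretion lists hold called genes on both sides, with Lef1 at -2.85 and Wls at 5.16.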

How the data were processed

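Each library has 1 deposited table of 126126 transcripts with, per the file headers, estimated counts, TPM and 2 lengths. The submitters' processing notes name kallisto, with version 1, and DESeq2. Reference transcripts, build and strand setting were not given in the sources used here. Estimated counts as deposited are unscaled, and 40.3 to 46.3% of values per library were not whole (tolerance 1e-06), because reads fitting several transcripts are shared out, so closely related or overlapping genes are uncertain one by one. In each library the authors' TPM, which corrects counts for effective length, adds up to 1000000.

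Unversioned transcript identifiers were looked up in GENCODE M21 (117992 found, 93.6%), and the 8134 unmatched ones, with 1.15 to 1.23% of counts, were left out. Counts were summed over 32780 genes and rounded. Members and lists were chosen with earlier results of these data known. Of symbols fitting the pattern, 1 was not protein-coding and was left out.

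The gene test was the robust quasi-likelihood fit of edgeR 4.0.16 in R 4.3.3, after filterByExpr and TMM scaling, adjusted by Benjamini-Hochberg over 15097 genes at 0.05, with glmTreat at log2 1 for changes over 2-fold. Each SE was derived as |log2 change| over the root of F. The common biological coefficient of variation came to 12.5%, and all CPM use TMM scaling. For a group at 0, folds are bounds against 3 counts summed over that group, and groups with 1 to 3 counts carry a 95% exact interval. Reads carry no stated molecular identifiers, so these bounds and intervals hold for counting error alone. The bounds leave out the counting error of the group that is not at 0. Transcript shares were compared for members with at least 20 counts in every library and transcripts at 5 to 95% of the gene, by two-sided exact permutation over 70 assignments (SciPy 1.17.1).

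The 17 alternatives were DESeq2 1.42.0 size factors and test, upper quartile scaling, no filter, limma 3.58.1 on log2(TPM + 0.1) and log2(TPM + 1), a transcript length offset, removal of a trend on length, the replicate number as a block, and leaving out each library. Every member is named. Of each other list, the 3 called genes with the smallest p per direction are named, and always Axin2, Lef1, Ctnnb1, Porcn, Wls, Lrp5 and Lrp6. The fit was tested on simulated counts in which few genes changed, which does not cover scaling where most genes are called, as here.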

Additional observations from a re-analysis of the deposited data

Results flagged for a closer look

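In 6 of 65 groups of 4 libraries, 1 library stood apart from the other 3 by the gap test of Dixon. It flags about 1 in 20 groups by chance when values are not tied. That rate does not hold for Wnt8a at day 10 and Dkk2 at day 0. There the other 3 libraries were at 0, and any value above 0 is flagged. Of the 6 flags, 2 are in day 10 library 2, the library with the highest neural and visceral endoderm marker sums. It had 0.370 CPM of Wnt8a where the other day 10 libraries had 0, and 24.8 CPM of Fzd8 where they had 10.8 to 13.1 CPM. Wnt8a fell and Fzd8 rose at day 10 with or without that library. The part of its mix of cells in these values was not tested.

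Lgr4 was at 158 CPM in day 10 library 3 and at 143.7 to 144.8 CPM in the other day 10 libraries. In day 0 library 2, Fzd3 was at 86.7 CPM against 74.2 to 76.3 CPM in the other day 0 libraries, and Dkk2 was at 0.139 CPM, which is 2 counts, against 0. In day 0 library 3, Fzd9 was at 2.11 CPM against 1.20 to 1.32 CPM in the others.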

How the results depend on the processing

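Of the 33 tested members, 31 kept their direction and their side of the threshold under all 17 alternatives. The exceptions were Wnt3, not called under any and at a log2 change of 0.31 on log2(TPM + 0.1), 0.17 on log2(TPM + 1) and from -0.26 to 0.033 when a library was left out, and Fzd7, at -0.17 with the length trend removed. Among other pathway genes the direction turned for Lrp6 (-0.18, length trend removed), Gsk3a (0.15 and 0.14 on TPM with 0.1 and 1 added) and Ankrd6 (0.12 and 0.11), and the Fzd6-202 share difference was 1.33 percentage points on counts instead of -0.41. On TPM, with either value added, 10 other pathway genes were lower (16 on counts), 13 destruction complex genes were higher and 0 lower (8 and 2), and 0 planar polarity genes were lower (3). Of all 15097 genes, 7846 were higher and 4077 lower on TPM with 0.1 added, and 7864 and 4096 with 1 added. With the transcript length offset 1 destruction complex gene was lower, and with the length trend removed 1 co-receptor gene and 5 planar polarity genes were lower. Of all 15097 genes, 5613 were lower with the offset and 6082 with the trend removed. Without a count filter 2 Wnt and 1 Rspo genes were lower, beside 6603 of the 24716 genes then tested. Log2 ratios of summed CPM instead of TPM were 1.06 for Fzd (1.48), 3.34 for Dkk (3.47) and -0.46 for Lgr (-0.14). Leaving out each library gave 26 members higher and 6 lower every time.

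With the replicate number as a block, 12298 genes were called (12399 without), 26 members higher and 6 lower. Same-numbered libraries correlated at 0.0301 to 0.0494 in their deviations and other pairs at -0.0720 to 0.0278. All 8 libraries correlated best with their own number, a hint from the data and not the design, and no pairing was used. The causes of these differences were not tested. Depth limits the 11 untested members, which had at most 68 counts in a group.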
